A study of Mus musculus with 10 samples.

Results

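The genes of retinoic acid synthesis, binding and clearance were examined in cultured fetal mouse testes. They were chosen by name: the 9 entries Cyp26b1, Aldh1a1, Aldh1a2, Aldh1a3, Adh1, Rdh10, Dhrs3, Crabp1 and Crabp2 out of 24470 gene entries in the count table. XY gonads of C57BL/6 embryos at E12.5 were explanted with the mesonephros attached. From each of 5 embryos (M1 to M5), the gonad of one side was cultured for 48 h with 75 µM GPI, an inhibitor of glycogen phosphorylase, and the contralateral gonad with the vehicle DMSO. The mesonephros was removed before RNA extraction, and each gonad gave 1 library. Libraries held 10203679 to 15590223 counts with vehicle and 11025409 to 15635322 with GPI.

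Retinoic acid is made from retinol in successive oxidations. Alcohol dehydrogenases such as ADH1 and retinol dehydrogenases such as RDH10 turn retinol into retinaldehyde, DHRS3 reduces retinaldehyde back to retinol, and the ALDH1A enzymes oxidize retinaldehyde irreversibly to retinoic acid. CYP26 enzymes degrade retinoic acid, and the CRABP proteins bind it in the cytoplasm. In the fetal testis CYP26B1 is known to keep retinoic acid from germ cells, in which it can induce Stra8, a gene of entry into meiosis.

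Of the 9 genes, 7 had enough counts to be tested and 5 of these differed between treatments. Cyp26b1, Aldh1a1 and Adh1 were upregulated in GPI-treated testes and Aldh1a3 and Rdh10 were downregulated, at an adjusted p under 0.05 (edgeR quasi-likelihood fit with the mouse as a block, p adjusted after Benjamini and Hochberg across the whole table). By the same rule 3198 of 13941 genes tested were called (22.9%), 1544 higher (11.1%) and 1654 lower (11.9%), so calls were common in these libraries. The split moved with the scaling and the mice: 1238 were higher and 1972 lower with total counts as the scale, 969 higher and 1347 lower without M3, and 1024 higher and 1287 lower without M4. The median log2 fold change was 0.30 over the 7 tested genes and 0.02 over all genes tested. The median of the 7 was 0.57 without M2, and over 8 tested genes, Crabp2 included, it was 0.96 without M3 and 1.13 in M4 and M5 alone. Aldh1a2 and Dhrs3 did not pass the threshold, which does not show that they were unchanged, and Crabp1 and Crabp2 were set aside for low counts. Whole gonads were sequenced, so fewer cells of a type and less RNA per cell cannot be told apart. Values below are normalized counts, that is counts divided by the TMM-scaled library size and multiplied by the mean of that size over the 10 libraries.

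**Figure D1:**
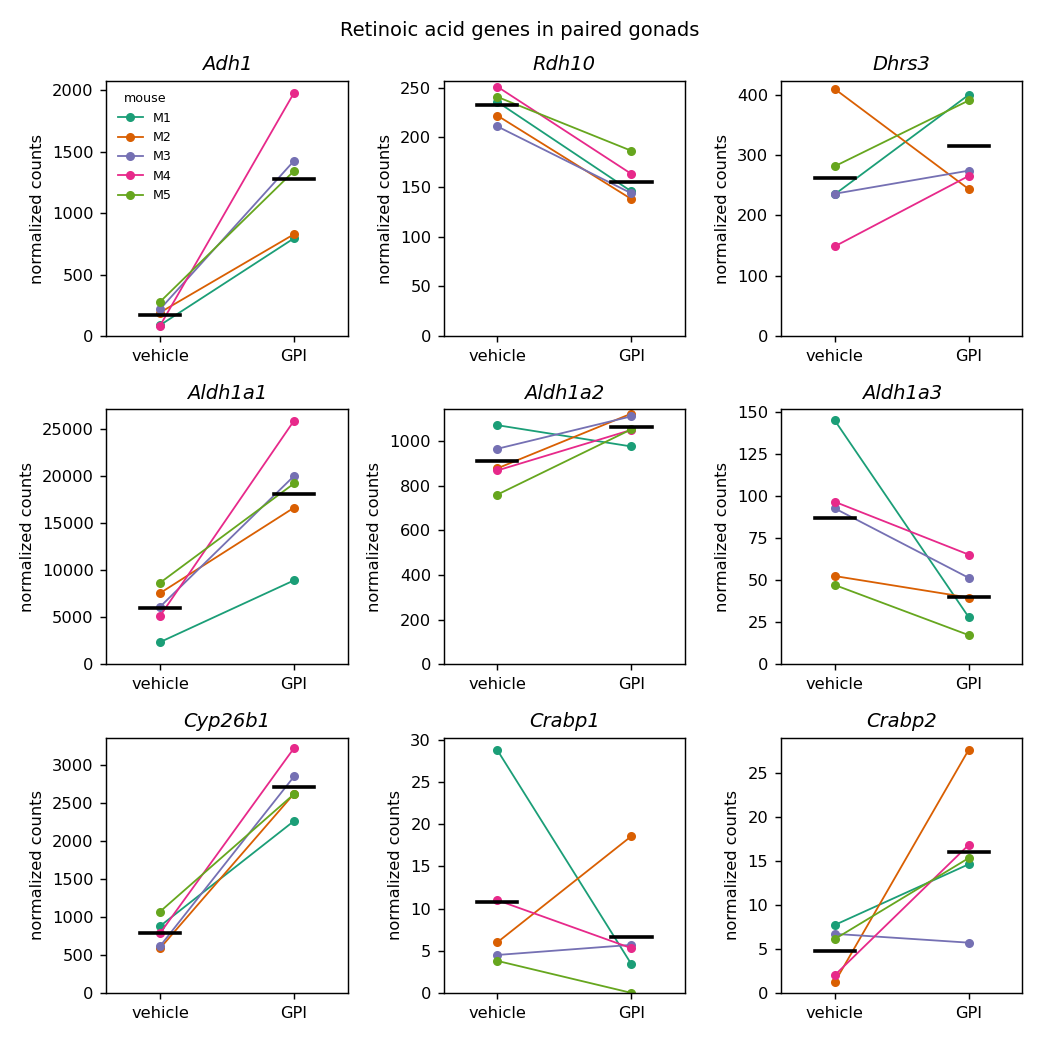
Normalized counts (y axis, starting at 0) of the 9 genes with vehicle and with GPI. Lines join the gonads of 1 mouse and black bars are means of 5 libraries. Cyp26b1, Aldh1a1 and Adh1 went up in 5 of 5 mice, and Rdh10 and Aldh1a3 went down in 5 of 5.

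Among the enzymes that act on retinol, Adh1 (Entrez 11522, mm10 chr3:138277645-138290691, plus strand) had 87.4, 191, 218, 82.7 and 277 normalized counts in the vehicle gonads of M1 to M5 and 796, 829, 1427, 1981 and 1344 in their GPI-treated partners. The groups did not overlap, which was true of 16.1% of all genes tested in either direction, and M4 went from the lowest vehicle value to the highest GPI value. Adh1 rose 7.45-fold in the mean, with a log2 fold change of 2.91 ± 0.26 (SE, n = 5 pairs; edgeR with Benjamini-Hochberg adjustment, adjusted p = 2.96e-06). Within mice the log2 ratio ran from 2.11 to 4.55.

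Rdh10 (Entrez 98711, chr1:16105882-16132550, plus strand), which encodes the main retinol dehydrogenase of the embryo, had 236, 222, 211, 251 and 241 normalized counts with vehicle and 146, 138, 144, 163 and 186 with GPI. Every GPI value was below every vehicle value, and the spread within a group was small. The mean fell to 66.9% of vehicle, with a log2 fold change of -0.58 ± 0.12 (SE, n = 5 pairs; edgeR with Benjamini-Hochberg adjustment, adjusted p = 0.00334). Adh1 and Rdh10 thus moved in opposite directions. Dhrs3 (Entrez 20148, chr4:144892827-144927645, plus strand) had 235, 409, 236, 148 and 281 normalized counts with vehicle and 400, 243, 274, 265 and 390 with GPI. These groups overlapped: 4 mice had more Dhrs3 with GPI and M2 had less. The log2 fold change of Dhrs3 was 0.30 ± 0.19 (SE, n = 5 pairs; edgeR with Benjamini-Hochberg adjustment, adjusted p = 0.295), and without M2 it was 0.57 with an edgeR Benjamini-Hochberg adjusted p of 0.0101.

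Aldh1a1 (Entrez 11668, chr19:20601982-20643462, plus strand) had 2368, 7571, 6117, 5144 and 8669 normalized counts with vehicle and 8936, 16660, 20033, 25909 and 19232 with GPI. M1 had the lowest value in each treatment, and its GPI-treated gonad lay just above the highest vehicle gonad, so the groups did not overlap. The mean rose 3.04-fold, with a log2 fold change of 1.65 ± 0.14 (SE, n = 5 pairs; edgeR with Benjamini-Hochberg adjustment, adjusted p = 2.29e-06). Aldh1a7, a close relative of Aldh1a1 on the same chromosome, had 132, 211, 255, 150 and 265 normalized counts with vehicle and 421, 429, 600, 862 and 537 with GPI. It rose by a log2 fold change of 1.48 ± 0.19 (SE, n = 5 pairs; edgeR with Benjamini-Hochberg adjustment, adjusted p = 5.64e-05). The transcripts of Aldh1a1 and Aldh1a7 are alike: 7.49% of the 50-base words of Aldh1a7 also occur in Aldh1a1, and 0 of its 1917 words of 150 bases. Aldh1a1 had 18 to 38.8 times the counts of Aldh1a7 in each library. Whether reads were shared between these genes was not tested, so the change of Aldh1a7 is uncertain.

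Aldh1a2 (Entrez 19378, chr9:71215789-71296243, plus strand) had 1070, 877, 965, 868 and 760 normalized counts with vehicle and 975, 1122, 1110, 1049 and 1052 with GPI. The groups overlapped through M1, whose vehicle gonad was the highest of its group and whose GPI-treated gonad was the lowest. The log2 fold change of Aldh1a2 was 0.23 ± 0.09 (SE, n = 5 pairs; edgeR with Benjamini-Hochberg adjustment, adjusted p = 0.0884), and without M1 it was 0.31 with an edgeR Benjamini-Hochberg adjusted p of 0.0215. Aldh1a3 (Entrez 56847, chr7:66390892-66427477, minus strand) had 145, 52.5, 92.7, 96.6 and 47.2 normalized counts with vehicle and 28, 39.7, 51.4, 65.2 and 17.4 with GPI. The groups overlapped although each mouse had less with GPI, and M1 had both the highest vehicle value and the steepest drop. Aldh1a3 fell to 46.5% of vehicle, with a log2 fold change of -1.09 ± 0.29 (SE, n = 5 pairs; edgeR with Benjamini-Hochberg adjustment, adjusted p = 0.0132).

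Cyp26b1 (Entrez 232174, chr6:84571414-84593908, minus strand), the retinoic acid-degrading enzyme of the fetal testis, had 880, 587, 615, 786 and 1071 normalized counts with vehicle and 2268, 2628, 2855, 3230 and 2622 with GPI. The lowest GPI value was above the highest vehicle value. The mean rose 3.45-fold, with a log2 fold change of 1.81 ± 0.13 (SE, n = 5 pairs; edgeR with Benjamini-Hochberg adjustment, adjusted p = 4.94e-07), and the log2 ratio within mice ran from 1.29 to 2.21. Transcripts of a synthetic enzyme, Aldh1a1, and of the clearing enzyme, Cyp26b1, were thus upregulated in the same gonads.

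The binding proteins were near the limit of detection. Crabp1 had 28.8, 6, 4.5, 11 and 3.8 normalized counts with vehicle and 3.4, 18.6, 5.7, 5.3 and 0 with GPI. Its highest values came from the vehicle gonad of M1 and the GPI-treated gonad of M2. Crabp2 had 7.7, 1.2, 6.7, 2 and 6.1 normalized counts with vehicle and 14.6, 27.6, 5.7, 16.8 and 15.3 with GPI. It was higher with GPI in 4 of 5 mice, at depths that leave no test in the filtered table.

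**Figure D2:**
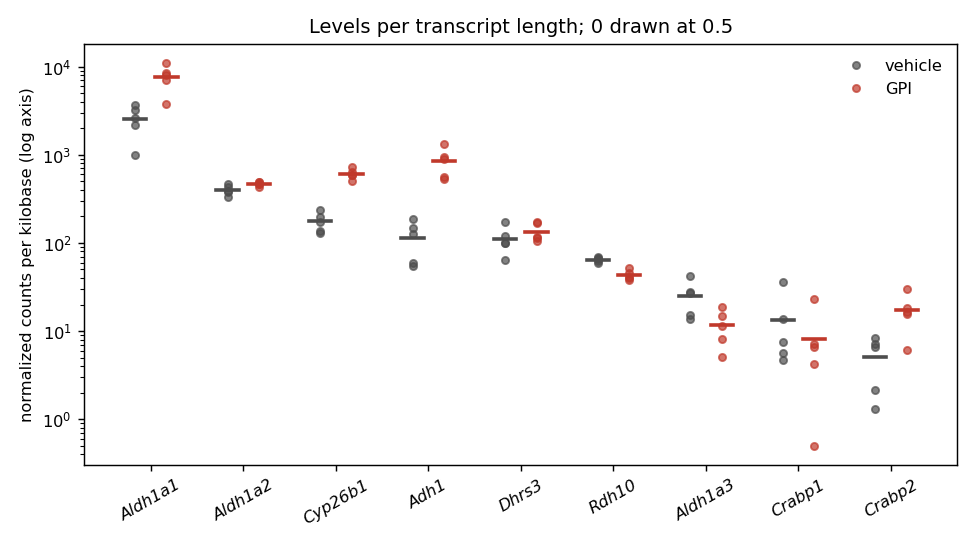
Normalized counts per kilobase of the longest annotated transcript (log y axis) for the 9 genes, ordered by the vehicle mean. Points are libraries and bars are means of 5, with a value of 0 drawn at 0.5. Aldh1a1 lies above the other genes in each treatment, and Adh1 passes Aldh1a2 with GPI.

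Levels were compared between genes per kilobase of the longest transcript. With vehicle, Aldh1a1 had the highest level, 2533 ± 1028 normalized counts per kilobase (SD, n = 5), followed by Aldh1a2 with 401 ± 51.4 and Cyp26b1 with 175 ± 44.3. Adh1 (115 ± 56.7), Dhrs3 (112 ± 40.8) and Rdh10 (64.7 ± 4.39) came next, and from Cyp26b1 to Rdh10 the libraries of neighbours in this order overlapped. Aldh1a3 was lower (25.2 ± 11.5), and its libraries overlapped those of Crabp1. Crabp1 and Crabp2 had the lowest means and overlapped each other. With GPI, Aldh1a1 stood at 7699 ± 2615 per kilobase (SD, n = 5), Adh1 at 855 ± 327 and Cyp26b1 at 605 ± 78.7, and the libraries of Adh1 and Cyp26b1 overlapped. Aldh1a2, with 469 ± 25.9, moved from 2nd to 4th in this order. Of the summed level of the 3 Aldh1a genes per kilobase, Aldh1a1 took 66.1% in the vehicle gonad of M1 and 84.1% to 91.3% in those of M2 to M5. With GPI its share was 89.6% in M1 and 93.3% to 95.8% in the other mice.

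The promoters of the 3 upregulated genes are shown because each of these genes was called higher with GPI. RefSeq promoters (GRCm38.p6) were found for 6 of the 9 genes, and the bases printed lie before both the RefSeq start and the start in the count table. Capitals mark a match to TATAAA or to a retinoic acid receptor half-site.
Cyp26b1, chr6:84593909-84594060, minus strand: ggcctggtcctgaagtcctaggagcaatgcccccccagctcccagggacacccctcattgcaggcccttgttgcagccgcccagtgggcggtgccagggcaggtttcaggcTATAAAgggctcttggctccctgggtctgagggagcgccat
Aldh1a1, chr19:20601718-20601967, plus strand: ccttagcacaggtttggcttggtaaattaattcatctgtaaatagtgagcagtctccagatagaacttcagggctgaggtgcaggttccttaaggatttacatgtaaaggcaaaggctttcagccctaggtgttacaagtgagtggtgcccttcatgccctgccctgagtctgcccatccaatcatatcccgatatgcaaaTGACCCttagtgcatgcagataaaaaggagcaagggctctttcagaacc
Adh1, chr3:138277335-138277584, plus strand: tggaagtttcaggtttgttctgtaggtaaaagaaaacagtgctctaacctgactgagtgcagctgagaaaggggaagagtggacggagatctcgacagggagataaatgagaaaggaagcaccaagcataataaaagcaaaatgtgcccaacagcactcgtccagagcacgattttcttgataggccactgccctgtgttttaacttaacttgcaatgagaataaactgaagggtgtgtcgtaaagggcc

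The motifs searched on both strands of the 250 bases before each RefSeq start were the TATA box word TATAAA, the SOX-type word AACAAT, the NR5A1-type word AAGGTCA, and retinoic acid receptor half-sites. The half-site was spelled AGGTCA, with the variant spellings AGTTCA or else GGGTCA or else GGTTCA, and was searched alone and as direct repeats spaced by 5, 2 or 1 bases. AAGGTCA contains the half-site AGGTCA. For Cyp26b1, 98 of the 250 bases searched lie inside the gene as the count table places it and are not printed. Cyp26b1 held TATAAA, as did 12.4% of all 32851 promoters of that length. Aldh1a1 has 2 RefSeq promoters: the one printed, which lies next to the start in the count table, held 1 half-site, GGGTCA on the other strand, and the one at chr19:20492333-20492582 held no match. In all, 38.6% of promoters held a half-site. No direct repeat was found in the promoters of the 6 genes, and such repeats were rare in general (0.0883%, 0.174% and 0.164% of promoters for spacings of 5, 2 and 1). The words AACAAT and also AAGGTCA, held by 9.42% and 4.08% of promoters, were not found in these windows either. The Adh1 window had 0 matches. A match describes the letters only.

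The other genes of retinoid handling were read from the same fit. Of 54 genes on 6 lists of retinoid handling and response, 32 were tested, and 5 were called higher and 5 lower. These were 31.2% of the 32, against 22.9% called over all genes tested. The median log2 fold change of the 32 was -0.03. Without M3 and without M5 the counts were 4 higher and 3 lower. In uptake and storage, 2 of 7 genes were tested: Lrat, which esterifies retinol for storage, rose by a log2 fold change of 1.04 ± 0.26 (SE, n = 5 pairs), and the retinol transporter gene Stra6 was not called. Of 17 further retinol and retinaldehyde enzymes, 7 were tested and 3 were called, all higher: Adh5 (log2 fold change 0.55), Rdh14 (0.41) and Aldh1a7. Rdh14 lost the call without M2, M3 or M5 (edgeR with Benjamini-Hochberg adjustment, adjusted p = 0.084, 0.156 and 0.0952). Cyp26a1 and Cyp26c1, the other retinoic acid-degrading enzymes, had at most 3.3 normalized counts in any library. Fabp5, which carries retinoic acid in some cells, had 429, 363, 299, 310 and 351 normalized counts with vehicle and 382, 105, 124, 119 and 204 with GPI. The groups overlapped through M1 and its log2 fold change was -1.06 ± 0.19 (SE, n = 5 pairs; edgeR with Benjamini-Hochberg adjustment, adjusted p = 0.00104).

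**Figure D3:**
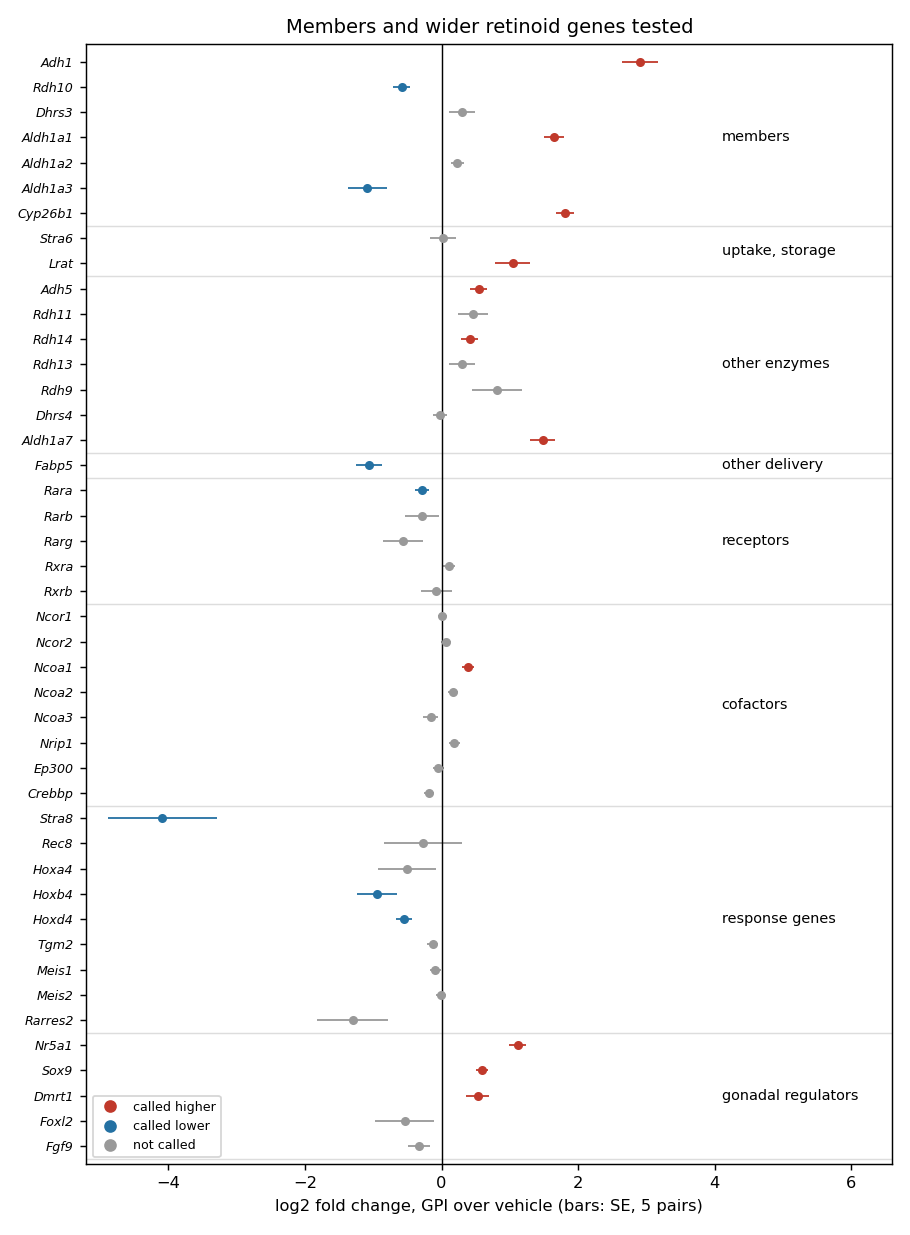
Log2 fold change (x axis, GPI over vehicle) with SE over 5 pairs for each tested gene of the 9 and of the wider lists, grouped by list and colored by call. Adh1, at 2.91, is the highest point and Stra8, at -4.09, the lowest.

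Of 6 receptor genes, 5 were tested and Rara was the single call, lower by a small margin (log2 fold change -0.29 ± 0.10, SE, n = 5 pairs; edgeR with Benjamini-Hochberg adjustment, adjusted p = 0.0463). Rara lost the call without M3, M4 or M5, with edgeR Benjamini-Hochberg adjusted p of 0.157, 0.205 and 0.124. Of 8 receptor cofactors Ncoa1 was called, higher by 0.39 on the log2 scale, and Ncor1 was not (0.01). Crebbp was also called, lower, with total counts as the scale (-0.24) and without the mouse as a block (-0.19), and Nrip1 higher without M2 (0.24). Of 17 genes listed as responding to retinoic acid, 12 were tested and 3 were called lower: Stra8, Hoxb4 and Hoxd4. By edgeR, DESeq2 or limma-voom 0 of the 12 were called higher (1 at an unadjusted p under 0.05). Over all genes tested, edgeR called 11.1% higher and 11.9% lower. The count holds for the list as chosen: Cyp26b1 and Lrat, both called higher, were not on it. Without M2, Nrip1, which is on this list too, was called higher and Rarres2 lower (-1.80), and Rarres2 was also called lower without the mouse as a block (-1.35). Rarb, a direct target of retinoic acid receptors, was not called (log2 fold change -0.29 ± 0.24, SE, n = 5 pairs). Hoxb4 (-0.95) lost the call without M1, M3 or M5, with log2 fold changes of -0.69, -0.77 and -1.02, and Hoxd4 had a log2 fold change of -0.55.

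Stra8, a germ cell gene that retinoic acid can induce, had 67.5, 60.9, 69.2, 45.8 and 12.2 normalized counts with vehicle and 7.8, 0, 0, 0 and 7.6 with GPI. The groups did not overlap, and 3 GPI-treated gonads had no count. Its log2 fold change was -4.09 ± 0.80 (SE, n = 5 pairs; edgeR with Benjamini-Hochberg adjustment, adjusted p = 0.00197). Leaving out 1 mouse moved it between -5.24 without M5 and -3.58 without M2, and DESeq2 gave -6.07. Germ cell markers moved with it: 5 of the 6 tested of 7 were called lower, among them Dazl (-4.62) and Ddx4 (-2.72, or -3.36 without M5). The 7 summed to 1684, 2854, 2094, 2723 and 1510 normalized counts with vehicle and 901, 710, 749, 958 and 923 with GPI. Kit, which somatic cells also express, was not called (-0.16) and made up most of each GPI sum. Without Kit the sums were 961, 2044, 1243, 1688 and 644 with vehicle and 125, 101, 27.6, 33.7 and 97 with GPI, and Pou5f1 was at 0 counts in the GPI-treated gonads of M3, M4 and M5. Their part in the Stra8 result was not tested.

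**Figure D4:**
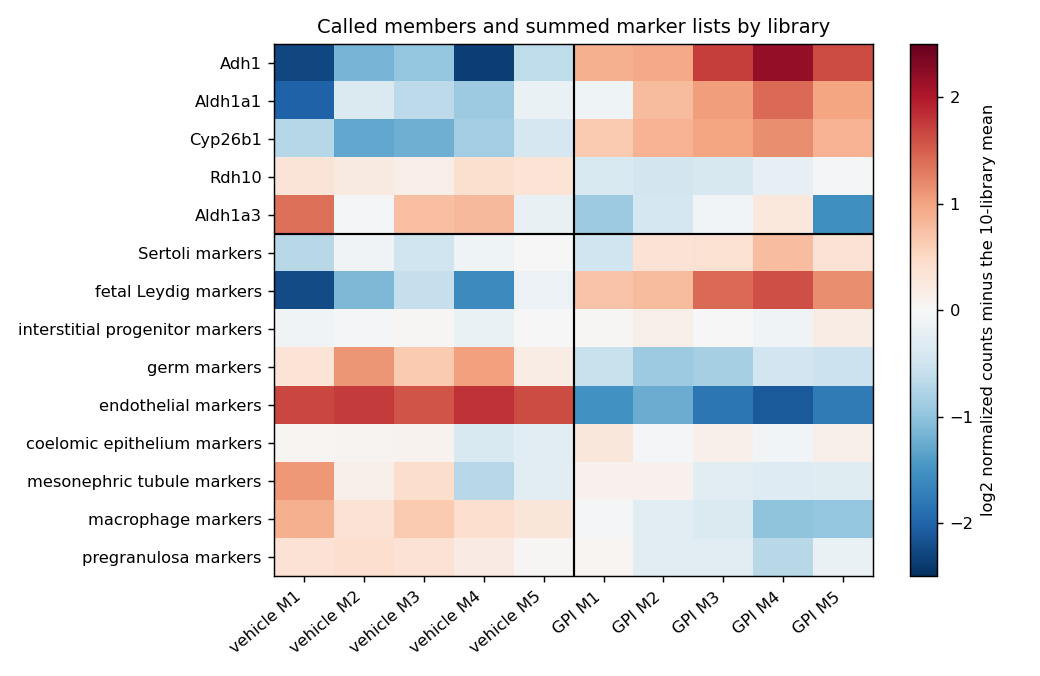
Log2 normalized counts (prior count 2) minus the mean over the 10 libraries, by color, for the 5 called genes and the summed counts of 9 marker lists, with a column for each library. Adh1, Aldh1a1 and Cyp26b1 are high in the same GPI-treated gonads as the fetal Leydig markers, and endothelial markers are low there.

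Markers of the gonadal cell types were read in the same libraries. Of 8 Sertoli markers 6 were called higher, Sox9 among them (log2 fold change 0.59), Amh was not called (0.08), and Aard had the most counts in each library but the GPI-treated gonad of M1. Aard was among the 6 but lost the call without M3 and without the mouse as a block (edgeR with Benjamini-Hochberg adjustment, adjusted p = 0.0502 and 0.0929). Dmrt1, also among the 6, lost it in these settings too and in others given below. Without M3, and without the mouse as a block, 4 of the 8 were called higher. The 8 summed to 3227, 4902, 3708, 4845 and 5168 normalized counts with vehicle and 3666, 6714, 6799, 8837 and 6686 with GPI. Of 6 fetal Leydig markers 5 were tested and all 5 were higher, with Cyp11a1 at 2.90 and Cyp17a1 at 3.90 on the log2 scale. Their sum was 1304, 2834, 4132, 2042 and 5584 normalized counts with vehicle and 10095, 10665, 16559, 18916 and 13747 with GPI, and Insl3 had at most 7.4 in any library. Hsd3b1 had the most counts of them with vehicle, and Cyp11a1 in 4 of 5 gonads with GPI. M1 and M4 had the lowest Leydig sums with vehicle and also the lowest Adh1 and Aldh1a1. Cyp26b1 did not follow this order: its lowest vehicle values were in M2 (587) and M3 (615). The part of the Leydig and Sertoli markers in the Adh1, Aldh1a1 and Cyp26b1 results was not tested.

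Marker transcripts of other cell types were read as well. All 6 endothelial markers were lower, with Cdh5 at a log2 fold change of -3.63 and Pecam1 at -4.16. Cdh5 had the most counts with vehicle and Kdr in 4 of 5 gonads with GPI. They summed to 7079, 7423, 6631, 7760 and 6834 normalized counts with vehicle and 772, 937, 628, 517 and 650 with GPI. Of 5 macrophage markers 4 were lower, Csf1r (-2.22) and Cd68 (-0.76), which had the highest mean count in each treatment, among them, while Adgre1 was not called. Without the mouse as a block Cd68 lost the call (edgeR with Benjamini-Hochberg adjustment, adjusted p = 0.0571). The macrophage sum was 649, 446, 549, 467 and 431 with vehicle and 339, 292, 272, 174 and 177 with GPI. Of 6 interstitial progenitor markers 2 were higher, with Pdgfra, which had the most counts in every library, at 0.33, 2 were lower, and Nr2f2 was not called. Tcf21, lower at -0.30, lost the call without M2 (-0.27), M3 (-0.26) or M4 (-0.29). Gli1, lower at -0.42, lost it without M3 (-0.38), without M4 (-0.41) and without the mouse as a block (-0.43). Nr2f2 was called lower with total counts as the scale (-0.23). That sum was 15979, 16424, 17330, 15188 and 16901 with vehicle and 17318, 18870, 16930, 15914 and 19327 with GPI. The part of these markers in the results was not tested.

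Of 5 pre-granulosa markers 4 were tested and 1 was lower, Wnt4 (-0.78), which had the most counts in every library, and Foxl2 and Fst were not called. They summed to 1687, 1756, 1677, 1509 and 1341 with vehicle and 1351, 1078, 1082, 811 and 1172 with GPI. Of 4 coelomic epithelium markers 3 were tested, Krt19 among them, and 0 were called by edgeR, with the most counts from Upk3b in every library. Their sum was 548, 555, 565, 404 and 435 with vehicle and 644, 521, 582, 509 and 589 with GPI. Of 5 gonadal regulators, Nr5a1 (1.11), Sox9 and Dmrt1 (0.53) were higher. Dmrt1 lost the call without M2, M3, M4 or M5 (edgeR with Benjamini-Hochberg adjustment, adjusted p = 0.102, 0.114, 0.186 and 0.107), and also without the mouse as a block and with total counts as the scale (edgeR with Benjamini-Hochberg adjustment, adjusted p = 0.0976 and 0.0613).

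Markers of mesonephric tubules, a tissue that was dissected away, had counts in all 10 libraries, and the source of these counts was not tested. The 6 summed to 692, 353, 441, 201 and 271 normalized counts with vehicle and 350, 349, 266, 260 and 264 with GPI, and 0 of the 2 tested, Pax8 and Gata3, were called by edgeR. Pax8 had the most counts of them in 3 of 5 vehicle gonads and Gata3 in 4 of 5 with GPI. Cdh16 had 113, 1.2, 48, 0 and 5.3 normalized counts with vehicle and 10.1, 21.1, 2.9, 0 and 4.4 with GPI. The highest Aldh1a3 and Crabp1 values came from the vehicle gonad of M1, which also had the most Cdh16. In M4 and M5 alone, the mice with under 10 normalized counts of Cdh16 in each gonad, Aldh1a3 had a log2 fold change of -0.95 and Rdh10 of -0.51, and neither was called (edgeR with Benjamini-Hochberg adjustment, adjusted p = 0.156 and 0.122). That fit used 2 pairs chosen after the data were seen. The summed tubule markers of these pairs were not apart from those of the GPI-treated gonad of M3 (266), so the choice does not separate libraries by that tissue, and its part in the results was not tested. Of the other listed genes, 11 lost the call in M4 and M5 alone. They were Lrat (0.62), Rdh14 (0.37), Stra8 (-2.73), Hoxb4 (-0.51), Hoxd4 (-0.59), Ddx4 (-2.22), Pdgfra (0.28), Maf (0.52), Tcf21 (-0.25), Gli1 (-0.41) and Dhh (0.66). Cyp26b1, Aldh1a1 and Adh1 were called higher there too, and Dhrs3 was called higher at 0.62.

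For each called gene, the 2 genes most alike across the 10 libraries were found among 11102 tested genes with a mean of at least 50 normalized counts, by the root mean square difference of centred log2 values. They were Fbln5 (0.186) and Smoc1 (0.238) for Cyp26b1, Slc25a35 (0.259) and Lipg (0.260) for Aldh1a1, and Sfrp4 (0.311) and Cyp11a1 (0.331) for Adh1. For Rdh10 they were Asah2 (0.094) and Bcl2 (0.113), and for Aldh1a3 Fam107b (0.460) and Pla2g7 (0.462), a looser likeness. Cyp11a1, the side-chain cleavage enzyme of steroid synthesis, had 317, 638, 1363, 498 and 1707 normalized counts with vehicle and 4584, 4436, 7269, 7875 and 5181 with GPI.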

How the data were processed

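RNA of 10 cultured gonads was counted. Read pairs were aligned by the authors with STAR (2.5 in the submitters' processing notes) against mm10 and counted per gene with featureCounts (Subread 1.5.0-p1) on RefSeq Curated models without regard to strand. They deposited raw counts per gene, which do not show how reads in overlapping genes were assigned. Of the called genes on the retinoid lists, Lrat overlaps Rbm46os (11393 bases, other strand) and Hoxd4 overlaps Hoxd3 (7183 bases, same strand). These bases are overlaps of whole gene spans, and exons were not compared. The part of these overlaps in the results was not tested. Counts were TMM-scaled and tested with edgeR 4.0.16 (R 4.3.3): filterByExpr (minimum count 10, minimum total 15) left 13941 genes, and glmQLFit and glmQLFTest were run with the mouse as a block, Benjamini-Hochberg adjustment and a threshold of 0.05. The SE is the absolute log2 fold change over the square root of F. Ratios within mice used a prior count of 2. Pairs come from the same animal per the labels. Deviations from the treatment mean correlated by 0.060 on average within mice and by -0.015 between mice. Libraries of a treatment differed beyond sampling noise (chi-square of 7.24 to 34.65 for each degree of freedom), so none was counted as a duplicate. Counting error alone understates the spread of amplified libraries, so precision was taken from the mice. Lengths came from GENCODE M21 by Entrez identifier. Named were the 9 genes, the first and every called gene of each wider list, the first 2 markers of each marker list and the one with the highest mean count over the 10 libraries, the 2 genes most like each called gene, and Aldh1a7. Some genes of these lists are not reported here and were left out of the counts and sums. Other genes named in the text were chosen after their values were seen. The genes and lists were chosen with earlier results of these data known. Alternatives were DESeq2 1.42.0, limma-voom (limma 3.58.1), no block, other scalings and filters, and each mouse left out. The procedure was tested on simulated data.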

Additional observations from a re-analysis of the deposited data

Results flagged for a closer look

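In 3 of 108 groups of 5 libraries examined, 1 library stood apart by Dixon's criterion (gap over range above 0.71). Chance flags about 1 in 20 groups. Crabp1 had 28.8 normalized counts in the vehicle gonad of M1, against 11 in the next. Pax2, a mesonephric tubule marker, had 29.2 in the GPI-treated gonad of M2, against 7.6 in the next. Ncor1 had 7530 in the GPI-treated gonad of M5, against 7004 in the next. The groups examined did not cover every gene named in the text, so the flags are not a full list for these genes. Pla2g7, Fam107b, Fbln5, Rarres2, Tcf21, Gli1, Crebbp and Nrip1 were among those left out. Pla2g7 had 176 normalized counts in the vehicle gonad of M1, against 112.8 in the next. With GPI its lowest value was 44.7 in M5, against 57.1 in the next. Crebbp had 7669 normalized counts in the vehicle gonad of M2, against 6641 in the next. Nrip1 had 2248 in the GPI-treated gonad of M4, against 1989 in the next.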

How the results depend on the processing

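Cyp26b1, Aldh1a1 and Adh1 were called higher under each of 13 alternatives, with log2 fold changes of 1.64 to 1.94, 1.48 to 1.78 and 2.55 to 3.25. Aldh1a3 (-1.26 to -0.80) and Rdh10 (-0.64 to -0.51) were called lower under 12 of 13. No called gene of these lists changed direction under an alternative. Without the replicate block, which ignores the pairing, 3108 genes were called in place of 3198, and no call of the 9 genes changed. With total counts as the scale, 1238 genes were called higher and 1972 lower. In M4 and M5 alone, an alternative chosen after seeing the data and with fewer samples, 1849 genes were called (756 higher, 1093 lower), 0 of the 9 genes were called lower, and 8 genes of the wider lists (the 6 retinoid lists and the gonadal regulators) were called, 2 of them lower. Aldh1a3 (-0.95) and Rdh10 (-0.51) lost the call there and Dhrs3 (0.62) gained it. With each mouse left out, all genes called higher numbered 969 to 1430, with 969 without M3 and 1024 without M4, and genes of these wider lists called lower numbered 3 to 6 in place of 5, with 3 without M3 and 3 without M5. Aldh1a2 ranged from 0.17 to 0.31 and was called without M1, and Dhrs3 ranged from 0.17 to 0.57 and was called without M2; the cause was not tested. With the mean transcript length in place of the longest, Adh1 and Dhrs3 changed places with vehicle, and Aldh1a3 and Crabp2 with GPI. With a prior count of 0.5 the genes most like each called gene were the same. With no low-count filter, Crabp1 and Crabp2 were tested and neither was called (edgeR with Benjamini-Hochberg adjustment, adjusted p = 0.611 and 0.0933). With the standard filter and M3 left out, Crabp2 passed the filter and was called (2.08; edgeR with Benjamini-Hochberg adjustment, adjusted p = 0.0416). In M4 and M5 alone it passed the filter too and was not called (1.95; edgeR with Benjamini-Hochberg adjustment, adjusted p = 0.158). Depth limits what can be said of Crabp1 and Crabp2.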
